A study of Mus musculus with 8 samples.

Results

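The 10 genes described here encode ubiquitin ligases of striated muscle and the chaperones that fold and assemble myosin. They were taken by symbol from a table of 55487 mouse gene identifiers, of which 19244 had a count in at least 1 library, and all 10 were found. RNA was sequenced from muscle stem cells (MuSCs, the resident PAX7-expressing stem cells of skeletal muscle) of aged mice. The cells had been sorted by FACS, pooled from 2 mice a pool, and grown for 72 hours in growth medium. Each of 4 pools was grown both with vehicle, at 1% DMSO, and with NAM/PN, the combination of nicotinamide and pyridoxine at 1 mM, which gave 4 vehicle and 4 NAM/PN libraries. All libraries came from wild-type male C57BL/6JRj mice, whose age the labels give only as old, and treatment is the only difference between the groups that the labels give. The study asked whether NAM/PN changes gene expression in aged MuSCs, and the comparison below asks it of these 10 genes.

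Ubiquitin ligases (E3 enzymes) attach ubiquitin to chosen proteins, which the proteasome can then degrade. Trim63 (MuRF1), Trim55 (MuRF2) and Trim54 (MuRF3) are RING-finger ligases of the sarcomere, Fbxo32 (atrogin-1, also called MAFbx) and Fbxo40 are F-box subunits that hold the substrate in ligases built on cullin 1, and Klhl40 and Klhl41 are kelch-like proteins of the family that serves as adaptors for cullin 3. Myosin needs help to fold: Unc45b is the muscle co-chaperone that brings the myosin motor to HSP90, Hsp90aa1 encodes the inducible HSP90α, and Smyd1 is a muscle methyltransferase that takes part in thick filament assembly. Trim63 and Fbxo32 are best known for their rise in wasting muscle, and several of these genes are also switched on when myoblasts become myocytes.

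The read counts of the libraries summed to between 6472484 and 10163101. Values are given as CPM, the reads counted for a gene per 1000000 of the normalised library size. A library with fewer than 3 counts of a gene was read as not detecting it, and this floor lay at 0.280 to 0.457 CPM. The libraries count reads at the 3′ end of transcripts, so the text compares a gene between libraries and not the levels of different genes. Markers of the labelled cell type were present: Pax7 was between 97.3 and 247 CPM and Myod1 between 1038 and 1561 CPM over the 8 libraries. Of markers fixed for other cell types, 3 of 7 endothelial (Emcn, Cldn5, Flt1), 6 of 7 immune (among them Ptprc, Itgam and Csf1r), 2 of 8 fibro-adipogenic (Pdgfra, Lum) and 1 of 7 mural and smooth muscle markers (Myh11) had 0 counts in all 8 libraries. Others were detected at low counts: Pecam1 had 6 and 24 counts in vehicle replicates 1 and 4 and 18 in NAM/PN replicate 2, Ly6a had 37 and 17 in those vehicle libraries and 42 in that NAM/PN library, and Cdh5 had 19 in vehicle replicate 4 and 25 in NAM/PN replicate 2, with 0 in the remaining libraries. The macrophage marker Cd68 had 9 to 64 counts in every library, and Egfl7 had 26 to 135 counts under vehicle against 68 to 316 under NAM/PN and was higher with NAM/PN in 4 of 4 pools (log2 fold change 1.02 ± 0.59, adjusted p 0.687). Col1a1, a collagen gene, stood apart in NAM/PN replicates 1 and 2, with 3949 and 7409 counts, against 26 and 35 in the other NAM/PN libraries and 14 to 334 under vehicle, and results are therefore also given without those libraries. Over all genes, vehicle replicate 3 and NAM/PN replicate 4 lay farthest from their groups (chi-square per degree of freedom of 68.0 to 87.4 and 70.7 to 82.4 in pairs with them, against 24.2 to 29.5 and 23.7 to 26.5 in the other pairs), and their most abundant gene took 18.7% and 5.22% of counts against 9.09% to 11.6% in the others. The number of the 10 genes called, 4 with all libraries, was 1 (Klhl41) without NAM/PN replicate 1, 2 (Klhl41 and Smyd1) without NAM/PN replicate 2, vehicle replicate 2 or vehicle replicate 3, and 4 without NAM/PN replicate 4.

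The upstream sequences of 5 of the genes are shown because 4 of them separated vehicle from NAM/PN libraries and the fifth, Trim54, did not. They are the 150 bases before the RefSeq start site on GRCm38.p6, written 5′ to 3′ on the gene's strand, with E-boxes (CANNTG, the core bound by MyoD and myogenin) and matches to the MEF2 consensus in capitals. The sequences are as follows for Trim63 (chr4:134314970-134315119, plus strand), Klhl40 (chr9:121777457-121777606, plus strand), Klhl41 (chr2:69669970-69670119, plus strand), Smyd1 (chr6:71262282-71262431, minus strand) and Trim54 (chr5:31116462-31116611, plus strand).
Trim63: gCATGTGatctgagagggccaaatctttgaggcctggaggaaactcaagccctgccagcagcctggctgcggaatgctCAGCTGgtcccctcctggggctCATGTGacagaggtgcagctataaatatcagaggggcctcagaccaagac
Klhl40: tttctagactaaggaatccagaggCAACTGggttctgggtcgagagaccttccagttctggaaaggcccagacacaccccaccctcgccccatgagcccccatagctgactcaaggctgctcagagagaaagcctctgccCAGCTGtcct
Klhl41: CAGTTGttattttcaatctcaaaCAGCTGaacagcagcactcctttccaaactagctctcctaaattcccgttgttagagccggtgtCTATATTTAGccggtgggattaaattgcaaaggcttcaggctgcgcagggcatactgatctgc
Smyd1: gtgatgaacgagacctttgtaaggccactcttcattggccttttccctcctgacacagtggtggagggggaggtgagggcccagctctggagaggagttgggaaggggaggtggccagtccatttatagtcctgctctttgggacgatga
Trim54: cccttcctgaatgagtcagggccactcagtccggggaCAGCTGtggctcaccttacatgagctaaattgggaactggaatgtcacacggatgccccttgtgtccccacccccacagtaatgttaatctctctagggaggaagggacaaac

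Within the 250 bases before the start site, searched on both strands, the E-box form CAGCTG was found in 5 of the 7 genes with a RefSeq window (Trim54, Trim63, Fbxo40, Klhl40 and Klhl41), and in 13.0% of all 32851 mouse windows of that length. Any CANNTG, which includes CAGCTG, was found in 6 of the 7 genes and in 66.2% of all windows. The MEF2 consensus was found in Klhl41 and Fbxo40 (2.92% of all windows) and the FOXO core TGTTTAC in Trim63, at position -194 and so outside the stretch shown (3.17% of all windows). Smyd1 held none of these letters in its window, and the CArG box (1.47% of all windows) was found in 0 of the 7. Trim54, whose level overlapped between conditions, shared CAGCTG with Trim63, Klhl40 and Klhl41, whose levels did not. The windows of Trim55, Fbxo32 and Hsp90aa1 were not analysed here.

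Of the 10 genes, 9 had enough counts to be tested and 4 were lower with NAM/PN (Trim63, Fbxo32, Klhl41 and Smyd1), while 0 were higher, whether in edgeR (also at an unadjusted p under 0.05) or in DESeq2. Over the 12060 genes tested, 1.28% passed the same threshold (an adjusted p under 0.05 in edgeR's quasi-likelihood test) in either direction and 0.995% passed it downward. In a further gene, Klhl40, all NAM/PN libraries were below all vehicle libraries without passing that threshold, so 5 of the 9 tested genes did not overlap downward, against 4.42% of all tested genes. The median log2 fold change of the 9 genes was -1.77, against -0.0022 over all genes tested, and it stayed at -1.77 with Trim63 set to the bound given below. Trim63 entered the tested genes only through its vehicle libraries, and without it 3 of 8 genes were called, 4 of 8 did not overlap and the median was -1.52. With the pool entered as a replicate block, which is the fit that follows the pairing of the libraries, 3 of the genes passed and Trim63 did not. In bulk RNA, fewer cells of a type that expresses a gene and less of its RNA in each cell cannot be told apart.

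**Figure D1:**
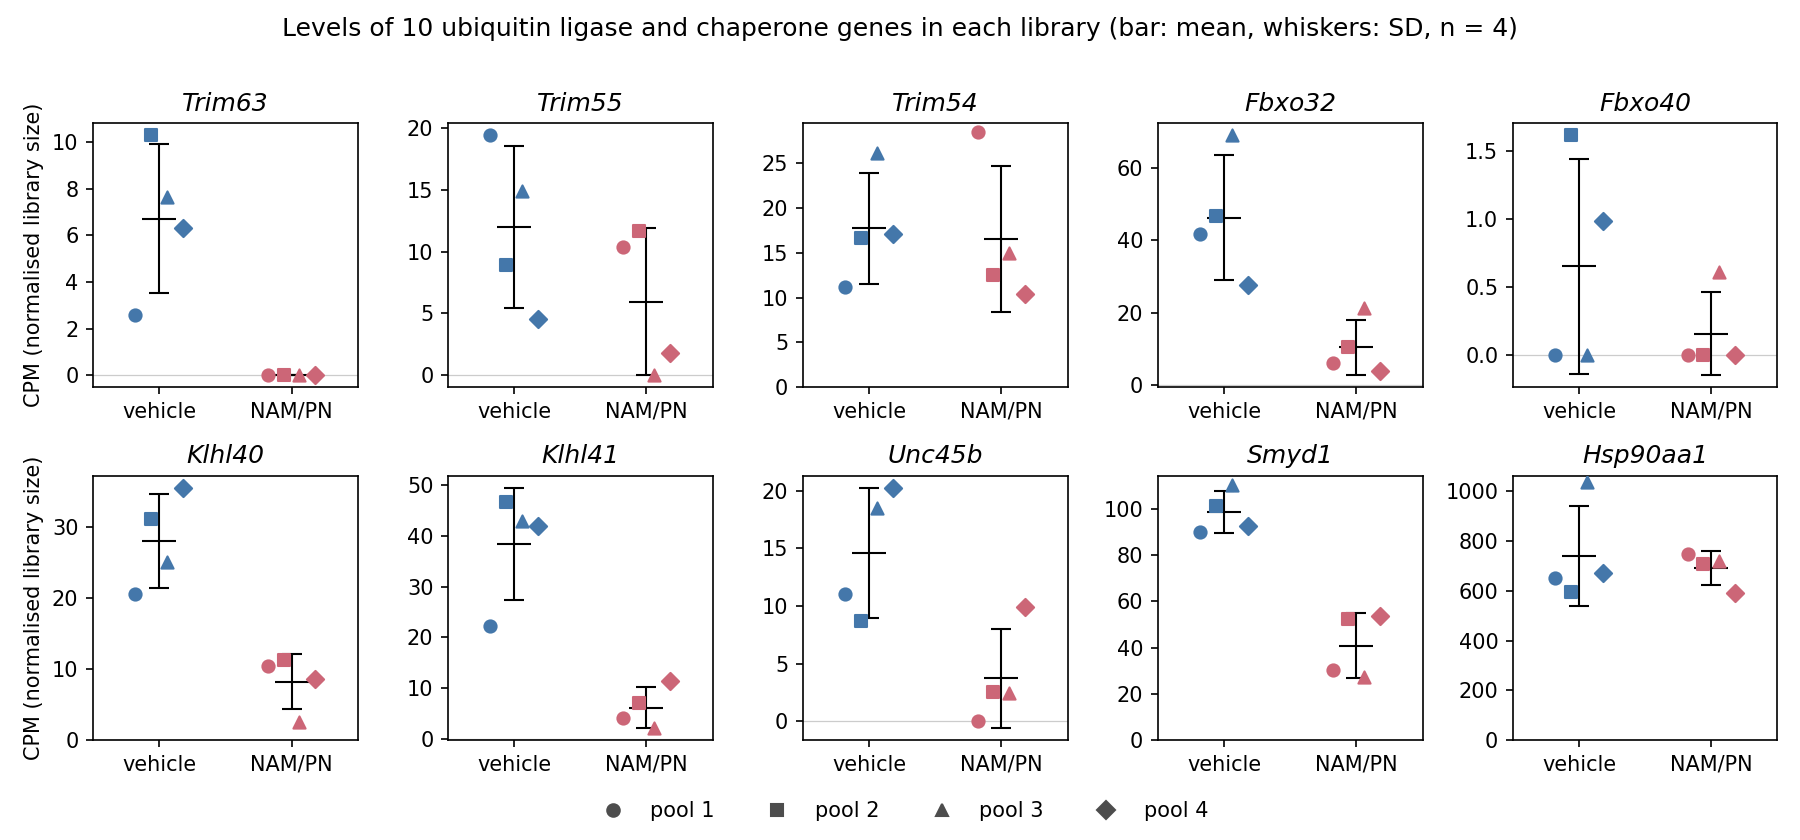
Level of each gene (y axis, CPM of the normalised library size, each panel with its own scale) in the 4 vehicle (blue) and 4 NAM/PN (red) libraries, with the mean as a bar and the SD as whiskers; marker shape gives the pool. Trim63, Fbxo32, Klhl40, Klhl41 and Smyd1 show no overlap between conditions, while those of Trim54 and Hsp90aa1 overlap, with the vehicle libraries of Hsp90aa1 (595 to 1038 CPM) spread more widely than the NAM/PN libraries (593 to 749 CPM).

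Trim63 (ENSMUSG00000028834, chr4:134315120-134329629), which encodes the ligase that ubiquitinates myosin and other thick filament proteins, was detected in every vehicle library and in no NAM/PN library. Its vehicle levels were 2.61, 10.3, 7.66 and 6.31 CPM in pools 1 to 4, from 22, 83, 62 and 58 counts. All 4 NAM/PN libraries held 0 counts, which allows a level of up to 0.280 to 0.457 CPM in them. Set against that floor, averaged over the 4 libraries, the level was at least 17.6-fold lower with NAM/PN. Since only the vehicle libraries brought Trim63 past the filter on low counts, its test is no evidence beyond the 0 counts themselves. Its adjusted p was 0.0344 in edgeR's quasi-likelihood test and 0.140 with the replicate block. The call was also lost when any library other than NAM/PN replicate 4 was left out (adjusted p between 0.0615 and 0.188 without vehicle replicate 1, 2, 3 or 4 or NAM/PN replicate 1, 2 or 3, and 0.0499 without NAM/PN replicate 4), and without both libraries of any 1 pool (0.113 to 0.276).

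Trim55 (ENSMUSG00000060913, chr3:19644474-19692421), which encodes the MuRF protein that links microtubules, titin and myosin in the young sarcomere, had overlapping levels. It was measured at 19.4, 8.93, 14.9 and 4.57 CPM with vehicle and at 10.3, 11.7, 0 and 1.77 CPM with NAM/PN. The highest NAM/PN library exceeded 2 of the vehicle libraries, and the NAM/PN libraries of pools 3 and 4 were the lowest of the 8. Its log2 fold change was -1.01 ± 0.93 (SE), with a 95% interval from -2.96 to 0.95 and an adjusted p of 0.872, an interval that holds both no change and a fall as large as that of Klhl41. The size of its difference was not stable: the log2 fold change was -1.60 with the replicate block (adjusted p 0.763), -3.67 without the 2 NAM/PN libraries with high Col1a1 (adjusted p 0.311) and -0.47 without pool 3 (adjusted p 0.944). An intronic transcript on the same strand within the gene's span, BC002189, had 87 to 205 counts in vehicle libraries and 0 to 61 counts under NAM/PN (log2 fold change -2.17 ± 1.07, adjusted p 0.565).

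Trim54 (ENSMUSG00000062077, chr5:31116712-31137630), which encodes the MuRF protein of microtubules and the Z-disc, showed no such split. It was measured at 11.1, 16.6, 26.1 and 17.1 CPM with vehicle and at 28.4, 12.5, 14.9 and 10.4 CPM with NAM/PN. The highest and the lowest of the 8 libraries were both NAM/PN libraries. Its log2 fold change was -0.10 ± 0.44 (95% interval -1.03 to 0.83, adjusted p 0.987), and within the pools it was higher with NAM/PN in pool 1 and lower in the other 3.

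Ratios of related genes within a library were compared for 8 pairs, by 2-sided exact permutation over the 70 assignments of libraries, with Benjamini-Hochberg adjustment over the 8. The smallest p these assignments allow is 0.0286. They ignore the pairing by pool, and an exact permutation of signs within the 4 pools, which treats each pool as a replicate block, has 0.125 as its smallest p. No result is read from the pairs with Trim63, since its 0 counts leave the NAM/PN ratio to the prior count: the difference of Trim54/Trim63 was 4.56 on the log2 scale at a prior count of 2 and 6.51 at 0.5. For Trim54 against Trim55 the difference was 1.79 ± 1.37 (SE; exact permutation p 0.286, adjusted 0.286), and it was 2.31 at a prior count of 0.5.

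**Figure D2:**
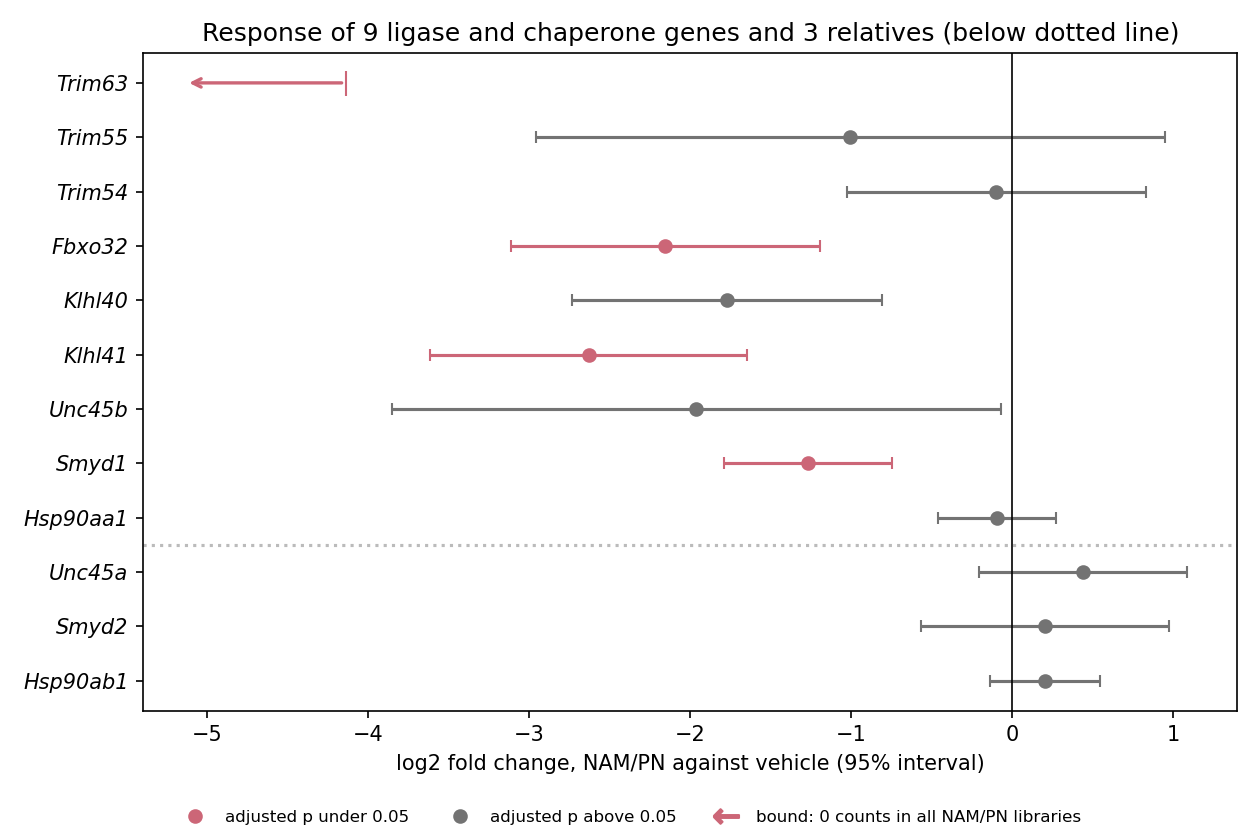
Log2 fold change of NAM/PN against vehicle (x axis) with its 95% interval from edgeR's quasi-likelihood fit for the 9 tested genes and, under the dotted line, 3 relatives expressed in many cell types; red marks an adjusted p under 0.05 and the arrow a bound for Trim63, which had 0 counts with NAM/PN. The intervals of Fbxo32, Klhl40, Klhl41, Unc45b and Smyd1 lie below 0, and those of Trim55, Trim54, Hsp90aa1 and the 3 relatives span it.

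Fbxo32 (ENSMUSG00000022358, chr15:58175879-58214932), the F-box gene that rises with Trim63 in wasting muscle, was lower with NAM/PN in all 4 pools. It was measured at 41.6, 46.7, 68.9 and 27.5 CPM with vehicle and at 6.28, 10.4, 21.2 and 3.83 CPM with NAM/PN. Pool 3 was the highest and pool 4 the lowest in both conditions, and the conditions did not overlap. The level fell from 46.2 ± 17.2 to 10.4 ± 7.66 CPM (mean ± SD, n = 4), a log2 fold change of -2.16 ± 0.46 (SE; 95% interval -3.12 to -1.20) with an adjusted p of 0.0182. With the replicate block the log2 fold change was -2.35 with an adjusted p of 0.00185. The call was lost when NAM/PN replicate 1 (adjusted p 0.081), NAM/PN replicate 2 (0.0608), vehicle replicate 2 (0.0776) or vehicle replicate 3 (0.0738) was left out of the fit without the block, and without pool 1 (0.18) or pool 2 (0.206).

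Fbxo40 (ENSMUSG00000047746, chr16:36963460-36990467), whose product binds the insulin signalling adaptor IRS1, was too scarce to be tested. Pools 1 to 4 gave 0, 13, 0 and 9 counts under vehicle, and 0, 0, 4 and 0 counts under NAM/PN. Most libraries held 0 counts, and no fold change is given. A difference in Fbxo40 was not detectable at this depth, and no result is read from its ratio to Fbxo32, which is set by the prior count.

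Klhl41 (ENSMUSG00000075307, chr2:69670120-69684230) encodes a kelch-like protein that keeps the thin filament protein nebulin from aggregating. In the fit without the block it had the lowest adjusted p of the 10 genes, and with the replicate block Fbxo32 did (0.00185). Klhl41 was measured at 22.3, 46.8, 43.0 and 42.0 CPM with vehicle and at 4.19, 6.97, 2.13 and 11.3 CPM with NAM/PN. The highest NAM/PN library, that of pool 4, was below the lowest vehicle library, that of pool 1. The level fell from 38.5 ± 11.0 to 6.15 ± 3.97 CPM (mean ± SD, n = 4), a fitted 6.20-fold difference (log2 fold change -2.63 ± 0.47, 95% interval -3.62 to -1.65, adjusted p 0.00456, and 0.00379 with the replicate block). Its call held without any single library, with adjusted p between 0.00148 and 0.0362, and was lost without pool 2 (0.102).

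Klhl40 (ENSMUSG00000074001, chr9:121777607-121783818), which stabilises nebulin and leiomodin 3, was measured at 20.5, 31.0, 24.9 and 35.5 CPM with vehicle and at 10.3, 11.3, 2.59 and 8.50 CPM with NAM/PN. The conditions did not overlap, and the level was lower with NAM/PN in 4 of 4 pools. The means were 28.0 ± 6.60 and 8.18 ± 3.90 CPM (SD, n = 4), and the log2 fold change was -1.77 ± 0.46 (95% interval -2.73 to -0.81). This missed the threshold, with an adjusted p of 0.0692 and of 0.0777 with the replicate block, while DESeq2 gave an adjusted p of 0.018. The log2 ratio of Klhl40 to Klhl41 was higher by 0.88 ± 0.38 with NAM/PN in 3 of 4 pools (exact permutation p 0.0857, adjusted 0.137), so an unequal response of the pair was not shown.

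Among the myosin chaperones, Smyd1 (ENSMUSG00000055027, chr6:71213940-71322233) was measured at 90.2, 101, 110 and 92.8 CPM with vehicle and at 30.2, 52.4, 27.3 and 53.5 CPM with NAM/PN. The vehicle libraries lay close together, and every NAM/PN library was well below them. The level fell from 98.6 ± 9.03 to 40.8 ± 14.1 CPM (mean ± SD, n = 4), a fitted 2.41-fold difference (log2 fold change -1.27 ± 0.25, 95% interval -1.79 to -0.75, adjusted p 0.00999, and 0.0101 with the replicate block). The call was lost without NAM/PN replicate 1 (adjusted p 0.0534) and held without any other single library (0.00455 to 0.0489). Without both libraries of a pool it was lost for pools 1 (0.104), 2 (0.0762) and 3 (0.0811). Krcc1, a gene on the opposite strand within the span of Smyd1 that shares no exon with it, had between 887 and 1299 counts a library and a log2 fold change of -0.15 ± 0.20 (adjusted p 0.936).

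Unc45b (ENSMUSG00000018845, chr11:82910550-82943403) was measured at 11.0, 8.69, 18.5 and 20.2 CPM with vehicle and at 0, 2.51, 2.44 and 9.90 CPM with NAM/PN. It was lower with NAM/PN in 4 of 4 pools, but the NAM/PN library of pool 4 exceeded the vehicle library of pool 2, so the conditions overlapped. The log2 fold change was -1.96 ± 0.90 (95% interval -3.85 to -0.07), and its adjusted p was 0.504. The size of the difference was not stable: the log2 fold change was -2.76 with the replicate block (adjusted p 0.335), -3.80 with voomWithQualityWeights and -3.15 without NAM/PN replicate 4, and leaving out libraries moved it between -3.15 and -1.23, with no adjusted p below 0.152.

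Hsp90aa1 (ENSMUSG00000021270, chr12:110690605-110702728) was measured at 651, 595, 1038 and 673 CPM with vehicle and at 749, 709, 720 and 593 CPM with NAM/PN. The conditions overlapped, with the vehicle library of pool 3 above all others. The log2 fold change was -0.09 ± 0.18 (95% interval -0.46 to 0.28, adjusted p 0.963), an interval that leaves out a fall as large as that of Smyd1. How reads that match several HSP90 copies were counted is not given in the sources used here, and the values of Hsp90aa1 and Hsp90ab1 are uncertain to that extent.

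Each of the 3 chaperone genes has a relative that is expressed in many cell types, and none of the 3 relatives passed the test. Unc45a, the general form of Unc45b, was measured at 41.1, 29.3, 18.3 and 27.9 CPM with vehicle and at 30.7, 35.4, 41.4 and 50.5 CPM with NAM/PN (log2 fold change 0.44 ± 0.31, 95% interval -0.21 to 1.09, adjusted p 0.785). Smyd2, a methyltransferase of the same family, was measured at 73.1, 17.5, 42.0 and 27.6 CPM with vehicle and at 52.7, 29.4, 39.3 and 62.9 CPM with NAM/PN (log2 fold change 0.20 ± 0.37, 95% interval -0.56 to 0.97, adjusted p 0.962). Hsp90ab1, the constitutive HSP90β, lay between 7176 and 11395 CPM with vehicle and between 8507 and 12995 CPM with NAM/PN (log2 fold change 0.21 ± 0.16, 95% interval -0.13 to 0.55, adjusted p 0.825).

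Within libraries, Unc45b and Smyd1 were lower against their relatives with NAM/PN in all 4 pools, though neither difference passed the threshold after adjustment. The log2 ratio of Unc45b to Unc45a was -1.01 ± 0.94 (SD, n = 4) with vehicle and -4.25 ± 1.97 with NAM/PN, a difference of -3.24 ± 1.09 (SE; exact permutation p 0.0286, adjusted 0.114, and 0.125 by signs within pools) that grew to -3.77 at a prior count of 0.5. The log2 ratio of Smyd1 to Smyd2 was 1.49 ± 0.92 and -0.18 ± 0.71, a difference of -1.67 ± 0.58 (exact permutation p 0.0571, adjusted 0.137). For Hsp90aa1 against Hsp90ab1 the difference was -0.27 ± 0.22 (exact permutation p 0.0857, adjusted 0.137) and rested mostly on NAM/PN replicate 4: without it the difference was -0.06.

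**Figure D3:**
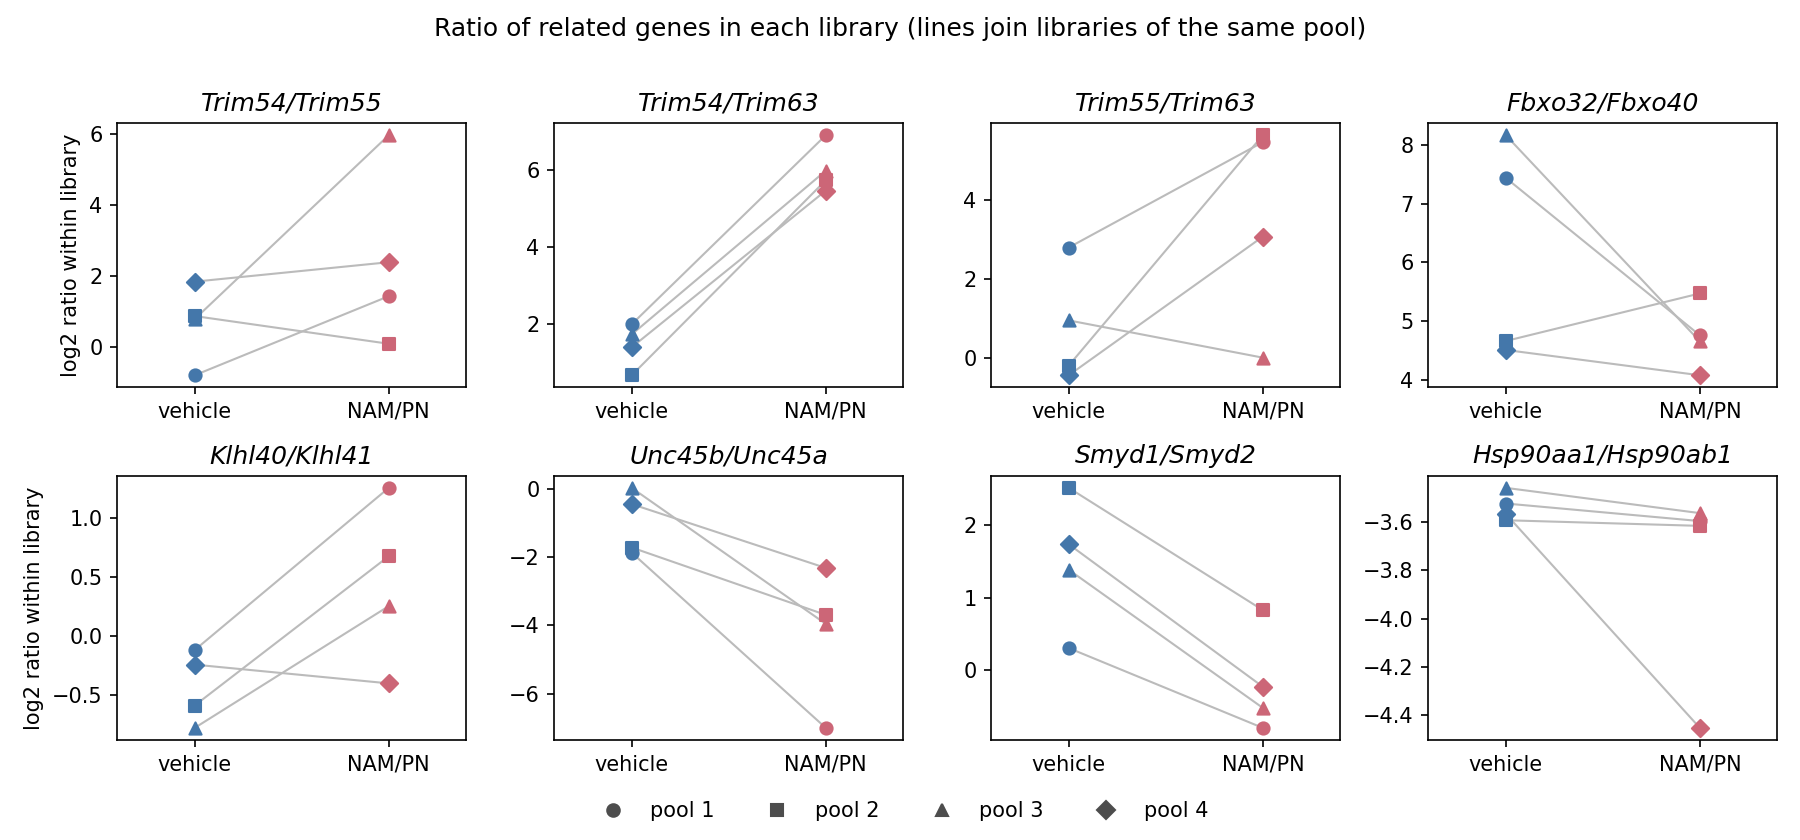
Log2 ratio of 8 pairs of related genes within each library (y axis, prior count of 2, each panel with its own scale), with lines joining the vehicle and NAM/PN libraries of a pool. Unc45b/Unc45a, Smyd1/Smyd2 and Hsp90aa1/Hsp90ab1 are lower with NAM/PN in 4 of 4 pools, the NAM/PN points of the pairs with Trim63 are set by the prior count, while the lines of Trim54/Trim55 and Fbxo32/Fbxo40 run in both directions; none of the 8 passes after adjustment.

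Genes that mark myocytes, the fusing cells that MuSCs give rise to, moved in the same direction as the 4 called genes. Of the 10 myocyte markers, 7 were lower with NAM/PN and 0 higher, the median of their log2 fold changes was -2.27, and their summed level was 1795 to 3550 CPM under vehicle and 402 to 993 CPM under NAM/PN. Of the 7 tested markers of MuSCs and myoblasts, 0 passed in either direction in edgeR, also at an unadjusted p under 0.05 (median log2 fold change -0.18). Taken against the mean log2 level of the 10 myocyte markers, which differed by -2.31 between conditions, Fbxo32 differed by -0.01, Klhl40 by 0.41, Klhl41 by -0.47, Unc45b by -0.46, Trim55 by 0.37, Smyd1 by 0.98 and Trim54 by 2.16, all with overlap between conditions. The SDs of these relative values (n = 4) lay between 0.20 and 1.32 under vehicle and between 0.39 and 2.64 under NAM/PN. For Fbxo32 they were 0.94 and 1.61. On this relative scale Trim63 differed by -2.40 and Hsp90aa1 by 2.24, both without overlap. The value of Trim63 depends on the prior count and was -4.26 at a prior count of 0.5, at which Hsp90aa1 (2.33) overlapped. Those of Trim55 (-0.06) and Unc45b (-0.91) also moved at that prior count. Values on this scale are descriptions with no test, and the part of myocyte number in the fall of the 4 genes was not tested.

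Values of markers listed for other cell types are as follows. Summed markers of mural and smooth muscle cells ranged from 285 to 608 CPM under vehicle and from 95.9 to 156 CPM under NAM/PN, carried mainly by Acta2 (log2 fold change -2.38, adjusted p 0.000147), with Myh11 at 0 and 1 of the 3 tested markers lower. Pdgfrb, Rgs5 and Kcnj8 were too scarce to be tested, at 27 counts or fewer in any library. Whether the number of such cells differed was not tested. Summed fibro-adipogenic markers lay between 227 and 328 CPM with vehicle and between 117 and 1168 CPM with NAM/PN. Under vehicle the sum came mainly from Col3a1 (mean 155 CPM) and Cd34 (mean 104 CPM), with Pdgfra and Lum at 0. CD34 is also a marker by which the study sorted MuSCs. Of the 3 tested markers 1 (Col3a1) was lower, and the highest sums were due to Col1a1 in NAM/PN replicates 1 and 2. Without those 2 libraries, which leaves 2 NAM/PN libraries, 0 of the 10 genes and 76 genes in all passed: the adjusted p was 0.0859 for Klhl41, 0.0899 for Smyd1, 0.129 for Trim63 and 0.219 for Fbxo32, with log2 fold changes of -2.49, -1.28, a value for Trim63 that depends on the prior count, and -1.90. In the same fit the log2 fold change was -2.32 for Klhl40 (adjusted p 0.109), -1.23 for Unc45b (0.648) and -0.17 for Hsp90aa1 (0.924). Without both libraries of pool 2, 0 of the 10 genes and 42 genes in all passed. Summed levels of endothelial markers lay between 3.46 and 19.4 CPM with vehicle and between 9.85 and 29.5 CPM with NAM/PN, and those of immune markers between 0.979 and 7.58 and between 3.50 and 7.14 CPM, with 0 called in either list.

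Of 19 tested genes for other ubiquitin ligases described in muscle, 2 were lower with NAM/PN and 0 higher, and their log2 fold changes had a median of 0.05. Over all tested genes, 0.995% were called lower and 0.282% higher, the shares to set beside the called counts of every list. At an unadjusted p under 0.05, 4 were lower and 0 higher. The share of all tested genes below that unadjusted p is not given, so counts at it are not read as results in any list. Asb5, a substrate adaptor of cullin 5 ligases expressed in activated satellite cells, was measured at 233, 277, 281 and 172 CPM with vehicle and at 112, 102, 104 and 104 CPM with NAM/PN (log2 fold change -1.19 ± 0.19, adjusted p 0.00158). Klhl31, a kelch-like relative of Klhl40 and Klhl41, was measured at 22.0, 29.2, 18.2 and 33.8 CPM with vehicle and at 4.43, 5.85, 7.005 and 7.01 CPM with NAM/PN (log2 fold change -2.08 ± 0.44, adjusted p 0.0164). Neither gene overlapped between conditions. The call of Klhl31 was lost without NAM/PN replicate 1 (adjusted p 0.0611), vehicle replicate 2 (0.0977) or vehicle replicate 4 (0.141), and without pool 1 (0.107), 2 (0.197) or 4 (0.14). It was also lost without both NAM/PN libraries with high Col1a1, where 1 of the list passed. The call of Asb5 held without any single library and was lost without pool 2 (0.0724), so 0 of the list were called there.

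Of 20 genes for ligase scaffolds, ubiquitin and the enzymes that activate and conjugate it, 0 passed in either direction in edgeR or under any alternative tool, 1 was higher and 0 lower at an unadjusted p under 0.05, and the median log2 fold change was 0.07. The gene with that p was Skp1, the adaptor that joins F-box proteins such as Fbxo32 to cullin 1, at 153, 112, 124 and 200 CPM under vehicle and 186, 191, 182 and 235 CPM with NAM/PN (log2 fold change 0.43 ± 0.20, adjusted p 0.498). Of 23 relatives and co-chaperones of HSP90, UNC45 and SMYD proteins, 0 passed in edgeR or under any alternative tool, 1 was lower and 0 higher at an unadjusted p under 0.05, and the median was 0.10. The gene with that p was Sugt1, an HSP90 co-chaperone, at 173, 173, 173 and 215 CPM under vehicle and 137, 172, 117 and 125 CPM with NAM/PN (log2 fold change -0.42 ± 0.18, adjusted p 0.47).

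Of 19 tested genes for proteins that these ligases and chaperones are known to act on or with, 6 were lower with NAM/PN and 0 higher (median log2 fold change -1.69), and 4 of the list are also among the myocyte markers. At an unadjusted p under 0.05, 10 were lower and 2 higher: Tfdp1 (log2 fold change 0.55 ± 0.22, adjusted p 0.372) and Irs1, whose product is bound by Fbxo40 (0.48 ± 0.19, adjusted p 0.362), both without overlap and higher in 4 of 4 pools, and named after their values were seen. The 4 with the smallest p were Myh3, the embryonic myosin heavy chain (87.5 ± 28.8 CPM under vehicle and 17.4 ± 5.58 CPM under NAM/PN, log2 fold change -2.33 ± 0.30, adjusted p 0.000232), Myl1 (74.7 ± 24.9 and 12.3 ± 5.12 CPM, -2.60 ± 0.34, adjusted p 0.000303), Mylpf (245 ± 46.8 and 46.1 ± 21.8 CPM, -2.41 ± 0.32, adjusted p 0.000318) and Neb, the nebulin gene (247 ± 103 and 67.2 ± 18.1 CPM, -1.88 ± 0.27, adjusted p 0.000685), each as mean ± SD with n = 4 and log2 fold change ± SE. Myh1 and Mybpc1, named after their values were seen, were the other called genes. With the replicate block 8 of the list passed, and without single libraries between 4 and 7 did, with the lowest count without vehicle replicate 2, 3 or 4 or NAM/PN replicate 3.

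Of 21 tested regulators of the atrophy ligases, 2 were lower with NAM/PN and 0 higher (median log2 fold change -0.20), and 4 were lower and 0 higher at an unadjusted p under 0.05. Myog, the myogenic factor that also drives Trim63 and Fbxo32 in denervated muscle and stands among the myocyte markers too, was measured at 680, 1042, 566 and 1428 CPM with vehicle and at 108, 237, 173 and 277 CPM with NAM/PN (log2 fold change -2.22 ± 0.29, adjusted p 0.000232). Mef2c, whose product binds the MEF2 consensus, was measured at 23.0, 42.9, 63.0 and 31.0 CPM with vehicle and at 7.26, 13.5, 4.26 and 11.9 CPM with NAM/PN (log2 fold change -2.11 ± 0.43, adjusted p 0.0125). Binding at the match in Klhl41 was not measured. Neither factor overlapped between conditions, and the call of Mef2c was lost without NAM/PN replicate 1 (adjusted p 0.0577), vehicle replicate 2 (0.0691) or vehicle replicate 3 (0.069), and without pool 1 (0.0655), 2 (0.0936) or 3 (0.131). It was also lost without both NAM/PN libraries with high Col1a1, where 1 of the list passed.

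**Figure D4:**
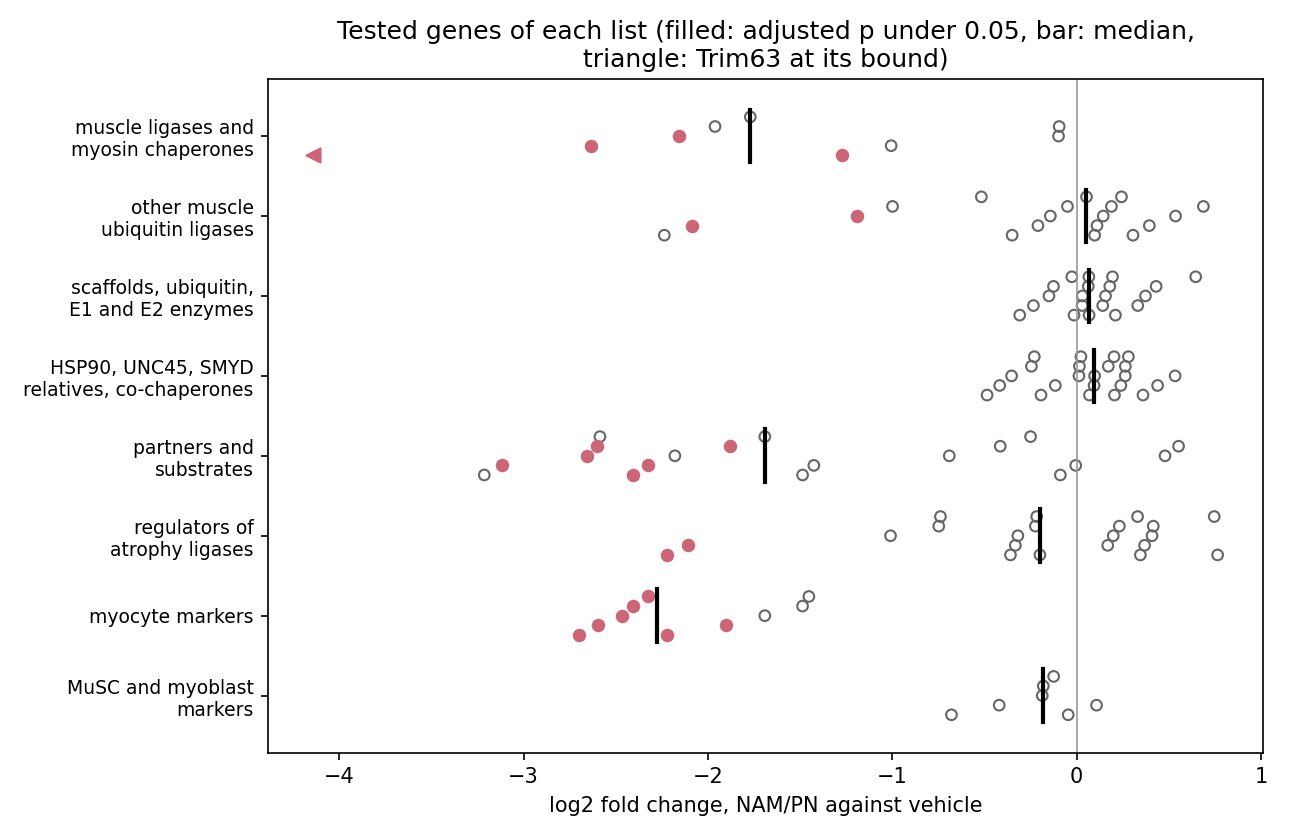
Log2 fold change of NAM/PN against vehicle (x axis) for every tested gene of the ligase and chaperone genes and 7 related lists, with called genes filled, the median of each list as a bar and Trim63 at its bound. The medians of the ligase and chaperone genes (-1.77), the partners and substrates (-1.69) and the myocyte markers (-2.27) lie well below 0, and the other medians lie between -0.20 and 0.10.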

How the data were processed

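MuSCs of aged mice were sequenced with a QuantSeq 3′ kit in 8 libraries, and the authors deposited raw read counts per gene for them. According to the methods, reads were aligned to GRCm38 with STAR and counted with HTSeq. The annotation release, the strand setting and the treatment of reads with several matches are not given in the sources used here. Libraries were grouped by their labels, in which the pool number names the same pool of mice in both conditions. This pairs the libraries by design, although deviations from the group means correlated within pools only between -0.033 and 0.031. P-values of the fit without the block measure the spread among libraries of a condition, taken as independent. Those of the replicate block measure how the difference varies between these 4 pools.

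Genes were named from GENCODE M21 on GRCm38 (55141 of 55487 identifiers), and 170 of 170 listed symbols matched. In R 4.3.3, edgeR 4.0.16 was used with filterByExpr (minimum count 10, minimum total 15), TMM normalisation, glmQLFit and glmQLFTest. P-values were adjusted by Benjamini-Hochberg over 12060 genes, at a threshold of 0.05. The fit was repeated with pool as a replicate block. SEs of log2 fold changes were derived as the absolute log2 fold change over the square root of the test's F statistic. The 95% intervals were built from these SEs, are unadjusted and use edgeR's moderated degrees of freedom. Log2 CPM used a prior count of 2. Ratios within libraries were compared by 2-sided exact permutation tests over 70 assignments, and by signs within pools. Floors cover counting error only, and reads are not independent molecules. Promoter sequences came from RefSeq on GRCm38.p6. The test was checked on simulated data. Figures were drawn with Python 3.11.15 and matplotlib 3.10.9.

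The 10 genes and the gene lists were chosen with earlier results of these data known. Besides the 10 genes and Unc45a, Smyd2 and Hsp90ab1, the text names up to 4 called genes with the smallest p in each list, or the gene with the smallest p where none was called, and defining cell type markers. Alternatives were DESeq2 1.42.0, RLE normalisation, no filter on low counts, a robust fit, voomWithQualityWeights with the pool as a random block (limma 3.58.1), a threshold of 0.10, a prior count of 0.5 and leaving out libraries or pools. The fit without both NAM/PN libraries with high Col1a1 was added after seeing the data.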

Additional observations from a re-analysis of the deposited data

Results flagged for a closer look

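Of 61 groups of 4 libraries examined for a library far from the other 3, 4 held such a library, while chance alone gives about 1 in 20, or 3.05. Fbxo40 was at 0.609 CPM in NAM/PN replicate 3 and at 0 in the other NAM/PN libraries, which rests on 4 counts. Hsp90ab1 was at 12995 CPM in NAM/PN replicate 4 and between 8507 and 9048 CPM in the other NAM/PN libraries. The log2 ratio of Hsp90aa1 to Hsp90ab1 was accordingly -4.45 in that library and between -3.61 and -3.56 in the others. Sugt1 was at 215 CPM in vehicle replicate 4 and between 173.2 and 173.5 CPM in the other vehicle libraries.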

How the results depend on the processing

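Over all genes, 154 were called, and with the replicate block 156, of which 130 were called in both fits. The count was 289 with DESeq2, 366 without a filter on low counts, 232 with voomWithQualityWeights and the pool as a random replicate block, and 244 at a threshold of 0.10. Leaving out libraries or pools gave between 42 and 177 called genes, with 42 without pool 2, 65 without pool 1, 94 without pool 4, 80 without vehicle replicate 2 and 76 without both NAM/PN libraries with high Col1a1. Of the 10 ligase and chaperone genes, 4 were called, and between 3 and 5 under the other alternatives. Klhl40 was the fifth under DESeq2, without the filter and at a threshold of 0.10, and Trim63 was the gene lost under the replicate block, which changed no other call among the 10. Leaving out libraries gave between 0 and 4, with 0 without both libraries of pool 2 and 0 without both NAM/PN libraries with high Col1a1. Of the genes in the 5 related lists, 10 were called, between 9 and 12 under the other alternatives and between 6 and 11 when libraries were left out. Of the ratios, 2 reached the smallest permutation p at either prior count (Unc45b/Unc45a, and Trim54/Trim63, which rests on the 0 counts of Trim63), and with the replicate block their p was 0.125, the smallest that signs within 4 pools allow. The number of genes outside the range of the other condition relative to the myocyte markers was 2, was 1 at a prior count of 0.5 and lay between 2 and 4 without single libraries. The sign of the log2 fold change of Trim54 (-0.66 to 0.19), Hsp90aa1 (-0.20 to 0.11) and Smyd2 (-0.13 to 0.67) changed with the libraries left out, and none of these was called. Fbxo40, Trim63, Trim55 and Unc45b each had 0 counts in at least 1 library, which limits how closely their levels are known.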
